A study of Mus musculus with 9 samples.

Results

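The genes described here are 9 members of vascular endothelial growth factor (VEGF) and angiopoietin signaling, chosen by gene symbol from the 24453 genes listed for mouse liver fibroblasts and hepatic stellate cells. They are the ligands Vegfa, Vegfb, Vegfc and Pgf, the VEGF receptor Flt1, the angiopoietins Angpt1 and Angpt2, and the receptors Tek and Tie1. RNA sequencing covered 3 libraries for each of 3 groups on the C57BL/6J background, and every library was made from RNA pooled over 3 to 5 mice. Hepatic stellate cells (HSCs) came from healthy livers of wild-type mice and were isolated on a density gradient. Fibroblasts of the carbon tetrachloride model (CCl4-fib) came from Col1a2-GFP Tg mice, which express green fluorescent protein under the collagen α2(I) promoter, after intraperitoneal CCl4 given 2 times per week for 8 weeks. Fibroblasts of the non-alcoholic steatohepatitis model (NASH-fib) came from male MC/COL mice, which carry the same transgene and lack the melanocortin 4 receptor (MC4R-KO). They received Western diet (WD) from 8 weeks of age, over 20 weeks. The ages and sex of the other mice are not given in the sources used here. Both kinds of fibroblast were sorted as CD45- GFP+ cells, so that cells with an active collagen promoter were selected, whereas HSCs were not sorted. Disease state, the transgene and way of isolation therefore cannot be told apart in either comparison with HSCs, and the MC4R-KO genotype cannot be told apart from WD in NASH-fib.

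VEGF ligands act mainly on endothelial cells. VEGF-A binds the receptors encoded by Flt1 and Kdr, whereas VEGF-B and placental growth factor (Pgf) bind Flt1 but not Kdr. VEGF-C and VEGF-D (Figf) act chiefly on Flt4, the receptor of lymphatic vessels. Angiopoietin-1, typically made by perivascular cells, activates the endothelial receptor Tie2 (Tek) and stabilizes vessels, angiopoietin-2 is a context-dependent antagonist of it, and Tie1 is a partner of Tie2 without a known high-affinity angiopoietin ligand of its own. In the liver the sinusoids are lined by endothelial cells that lie next to the HSCs, which are themselves the pericytes of the sinusoid.

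Reads on genes per library ranged from 3071070 to 5634273 (median 3740541 for HSCs, 5258041 for CCl4-fib and 4550212 for NASH-fib). The values below are the deposited normalized values, which are reads scaled to a common total of 4471991, unless RPKM, reads per kilobase of transcript scaled to library size, are named. Levels were compared between genes only in RPKM. A group difference was called where limma, fitted to log2(value + 1) of the 13651 genes that passed a filter on low reads, gave an absolute log2 fold change of at least 1 and a Benjamini-Hochberg adjusted p under 0.05. All 9 members passed the filter. The number of libraries per group (n = 3) and the pooling of mice mean that these p-values measure the spread between pools. The labelled cell types were checked against marker genes, whose RPKM were summed in each library. The sum of 10 quiescent stellate cell genes was 2950 to 3828 for HSCs, 427 to 808 for CCl4-fib and 216 to 521 for NASH-fib, and that of 9 activated fibroblast genes was 435 to 673, 3418 to 3952 and 1785 to 3010. The HSC libraries also held endothelial and leukocyte transcripts, whose values are given with the receptors.

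In NASH-fib against HSCs, Pgf and Angpt2 were higher and Flt1 and Tie1 were lower, so that 2 of the 9 members were called higher and 2 lower, where 8.23% of all genes tested were called higher and 4.3% lower. In CCl4-fib against HSCs, Pgf and Angpt2 were again higher and Flt1, Angpt1, Tek and Tie1 were lower, which makes 2 members higher and 4 lower against 16.2% and 11.7% of all genes. In NASH-fib against CCl4-fib, Angpt1, Angpt2 and Tek were higher and no member was lower, against 4.97% and 5.66% of all genes. The median log2 fold change of the members was -0.71, -1.32 and 1.72 in these comparisons in turn, where that of all genes tested was -0.02, 0.18 and -0.11. The libraries of the 2 groups did not overlap for 7 members in NASH-fib against HSCs (24.4% of all genes), 7 in CCl4-fib against HSCs (48.6%) and 4 in NASH-fib against CCl4-fib (39.1%). The 3 comparisons share groups with each other, and both comparisons with HSCs rest on the same 3 HSC libraries. With the leading number of the description labels, which reads like a date, as a term of the limma fit, no member was called between NASH-fib and HSCs, although 4 had an unadjusted p under 0.05, and the log2 fold changes of Pgf, Flt1 and Angpt2 were then 6.75, -2.71 and 3.52 (adjusted p = 0.0811, 0.0677 and 0.0663). Calls over all genes tested fell from 1711 to 668 in this comparison with the same term. NASH-fib replicates 2 and 3 carry a leading number that no HSC library carries, and that of HSC replicate 1 occurs in no other library. This term is therefore partly confounded with group.

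**Figure D1:**
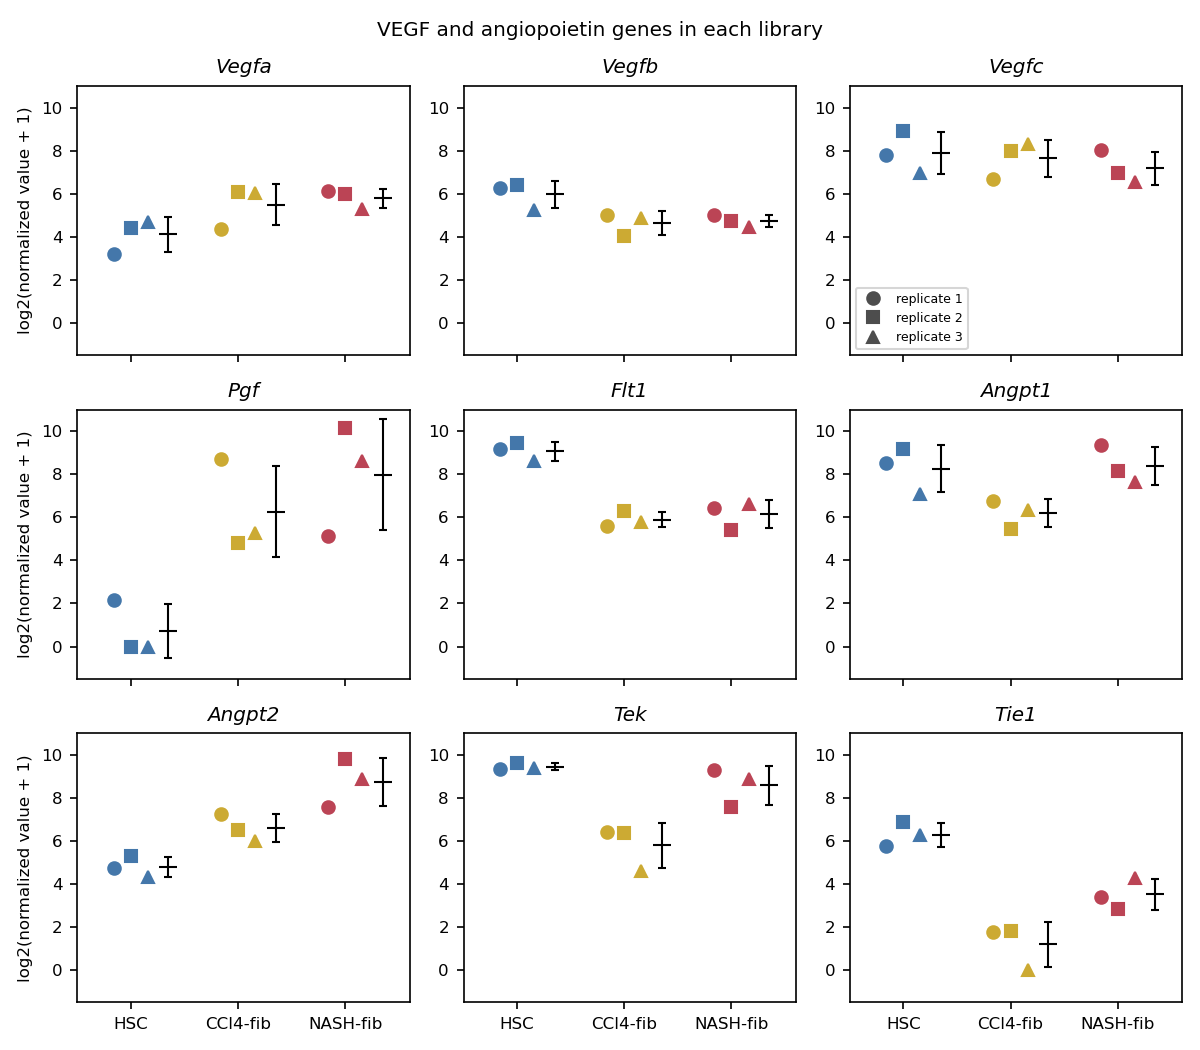
Normalized values of the 9 members in each library on the log2(value + 1) scale, by group, with 1 symbol per replicate and the mean and SD of each group in black. Pgf and Angpt2 lie higher in both kinds of fibroblast than in HSCs, Flt1 and Tie1 lie lower, and Tek and Angpt1 are lowest in CCl4-fib.

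**Figure D2:**
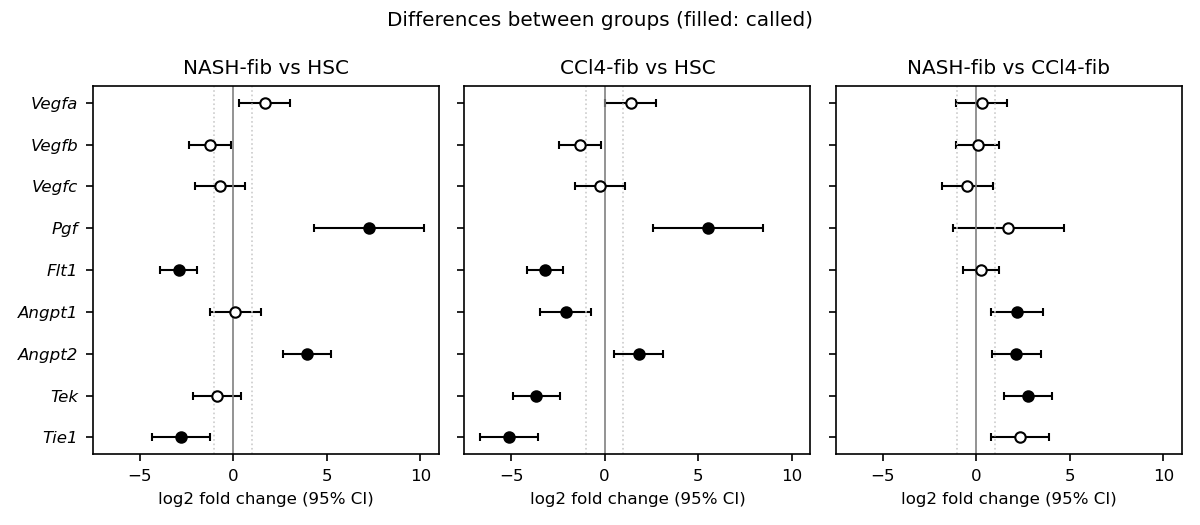
Log2 fold changes of the 9 members from the limma fit with their 95% confidence intervals (CI), in panels for the 3 comparisons. Filled points were called, dotted lines mark a log2 fold change of 1 in either direction, and the 3 filled points of NASH-fib against CCl4-fib are Angpt1, Angpt2 and Tek.

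The 250 bases upstream of the transcription start are shown for 4 genes that differed from HSCs in the same direction in both kinds of fibroblast, the ligand genes Pgf and Figf, which were higher, and the receptor genes Flt1 and Tie1, which were lower. Sequences are from RefSeq (GRCm38.p6) and run 5′ to 3′ on the strand of the gene, with each GGAA, the core bound by ETS factors, in capitals on either strand (GGAA or TTCC). Pgf is read from chr12:85177314-85177563 (minus strand), Figf from chrX:164373272-164373521 (plus strand), Flt1 from chr5:147726012-147726261 (minus strand) and Tie1 from chr4:118489850-118490099 (minus strand).
Pgf: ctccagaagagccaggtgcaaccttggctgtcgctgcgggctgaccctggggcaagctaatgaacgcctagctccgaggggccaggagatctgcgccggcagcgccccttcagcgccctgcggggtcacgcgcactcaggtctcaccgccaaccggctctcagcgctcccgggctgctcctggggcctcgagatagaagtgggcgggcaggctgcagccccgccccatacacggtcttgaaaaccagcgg
Figf: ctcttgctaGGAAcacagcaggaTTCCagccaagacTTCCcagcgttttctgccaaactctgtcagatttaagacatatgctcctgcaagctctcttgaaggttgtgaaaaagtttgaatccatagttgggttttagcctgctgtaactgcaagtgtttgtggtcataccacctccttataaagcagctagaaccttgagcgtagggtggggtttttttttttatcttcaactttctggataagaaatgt
Flt1: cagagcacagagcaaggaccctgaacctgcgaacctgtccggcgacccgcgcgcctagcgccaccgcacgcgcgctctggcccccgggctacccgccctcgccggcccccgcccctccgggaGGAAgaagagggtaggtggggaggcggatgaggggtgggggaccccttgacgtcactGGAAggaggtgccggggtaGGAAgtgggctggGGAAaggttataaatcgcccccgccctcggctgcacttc
Tie1: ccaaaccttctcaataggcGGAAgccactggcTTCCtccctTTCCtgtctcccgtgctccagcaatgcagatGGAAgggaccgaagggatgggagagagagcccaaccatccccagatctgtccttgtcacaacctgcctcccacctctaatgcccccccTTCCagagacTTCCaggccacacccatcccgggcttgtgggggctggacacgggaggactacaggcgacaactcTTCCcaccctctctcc
The Pgf window held 0 matches to GGAA, the Figf window 3, the Flt1 window 4 and the Tie1 window 7, where 93.45% of 32851 promoter windows of this length held at least 1 and the median was 3. ACGTG, the core of the hypoxia response element, had 0 matches on either strand in all 4 windows and was held by 16.57% of all windows. The start of Flt1 used here lies 23 bases from that of the deposited transcript. The GC content was 68.4% for Pgf, 42.4% for Figf, 70.4% for Flt1 and 60.4% for Tie1. Sequences were matched for 7 of the 9 members, all but Angpt1 and Angpt2.

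Among the ligands, Pgf differed most between the groups. Placental growth factor is a VEGF relative that signals through Flt1 and is little made by most healthy adult tissues. Pgf (NM_008827, mm10 chr12:85166639-85177313, minus strand) had values of 3.51, 0 and 0 in the 3 HSC libraries, which is 3 reads in all. Its values were 410.4, 27.2 and 37.2 in CCl4-fib, from 588 reads, and 34.0, 1144 and 396 in NASH-fib, from 1713 reads. Every fibroblast library lay above every HSC library, but the fibroblast libraries spread widely, with 1 high library in CCl4-fib (replicate 1), 2 high libraries in NASH-fib (replicates 2 and 3) and the ranges of the 2 groups overlapping. On the scale of summed reads, Pgf was 472 times higher in NASH-fib than in HSCs (95% exact interval 161 to 2292) and 134 times higher in CCl4-fib (45.6 to 651). These intervals cover counting error only, and 1 library carried most of the reads in each group. Without CCl4-fib replicate 1 the ratio to HSCs was 25.3 (8.32 to 126), and without NASH-fib replicate 2 it was 194 (65.8 to 942). The log2 fold change was 7.25 (SE 1.33, adjusted p = 0.00441, limma with Benjamini-Hochberg adjustment) in NASH-fib and 5.53 (SE 1.33, adjusted p = 0.0113) in CCl4-fib. It was no longer called in CCl4-fib without CCl4-fib replicate 1 (4.31, adjusted p = 0.0514). Between both kinds of fibroblast the log2 fold change was 1.72 (95% CI -1.23 to 4.67, adjusted p = 0.420). Myh11, a defining gene of smooth muscle, was the gene whose log2 values followed Pgf most closely (r = 0.982 over the 9 libraries, a description across libraries of 3 groups). The RPKM of Myh11 was 4.27, 2.34 and 2.49 for HSCs, 335, 56.2 and 55.0 for CCl4-fib and 82.3, 466 and 256 for NASH-fib, so that the libraries high in Pgf were also those high in Myh11. The summed RPKM of 10 smooth muscle and mural genes was 1211 to 2038 for HSCs, 279 to 1510 for CCl4-fib and 1383 to 2162 for NASH-fib. The genes of this list split in direction. Rgs5 was the largest part in HSCs (804 to 1505 RPKM). Abcc9 had 295 to 391 RPKM for HSCs, 6.39 to 12.7 for CCl4-fib and 30.4 to 42.5 for NASH-fib. Kcnj8 was likewise lower in every fibroblast library than in any HSC library. Myh11, Cnn1, Myocd, Cspg4, Notch3 and Higd1b were higher in every fibroblast library. Rgs5 overlapped with HSCs in NASH-fib, and Mcam in CCl4-fib. In these bulk samples fewer cells of a type and less RNA per cell cannot be told apart, and the part of such cells in the Pgf values was not tested.

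Vegfa, the main growth factor of blood vessels, had low levels throughout. Its values (NM_001025250, chr17:46016993-46032377, minus strand) were 8.18, 20.4 and 25.1 for HSCs, 19.8, 66.3 and 63.9 for CCl4-fib and 68.0, 61.4 and 38.3 for NASH-fib. The NASH-fib libraries all lay above the HSC libraries, whereas CCl4-fib replicate 1 lay among them. The log2 fold change was 1.68 in NASH-fib (SE 0.62, adjusted p = 0.122) and 1.38 in CCl4-fib (SE 0.62, adjusted p = 0.123), and neither was called. Between the fibroblasts it was 0.30 (95% CI -1.08 to 1.67). None of the 6 genes of oxygen sensing that act upstream of Vegfa (Hif1a, Epas1, Arnt, Vhl, Egln1 and Egln3) was called in any of the 3 comparisons.

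Vegfb, a ligand of Flt1 linked to lipid uptake by endothelium, had its highest values in HSCs. The values (NM_011697, chr19:6982472-6987651, minus strand) were 76.0, 83.0 and 37.1 for HSCs, 31.8, 15.3 and 28.6 for CCl4-fib and 31.3, 25.8 and 20.6 for NASH-fib. HSC replicate 3 lay close above the highest fibroblast library, and HSCs did not overlap with either kind of fibroblast. The log2 fold change was -1.24 in NASH-fib (adjusted p = 0.174) and -1.32 in CCl4-fib (adjusted p = 0.0800), which missed the threshold in both. For CCl4-fib it passed with DESeq2 (-1.47, adjusted p = 0.0290) and without HSC replicate 3. Vegfc, a ligand of the lymphatic receptor, had overlapping values in all 3 groups (NM_009506, chr8:54077532-54186454, plus strand), with 222, 473 and 126 for HSCs, 101, 252 and 312 for CCl4-fib and 261, 123 and 93.4 for NASH-fib. Its log2 fold changes were -0.71 in NASH-fib against HSCs (95% CI -2.06 to 0.64), -0.24 in CCl4-fib (-1.59 to 1.11) and -0.46 between the fibroblasts (-1.81 to 0.89).

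Figf, the gene of VEGF-D and the remaining VEGF ligand in the pathway list, rose in both kinds of fibroblast, with little spread among their libraries. Its values were 9.35, 18.9 and 20.3 for HSCs, 485, 442 and 385 for CCl4-fib and 469, 364 and 508 for NASH-fib. The lowest fibroblast library lay far above the highest HSC library, and the fibroblast groups overlapped. The log2 fold change was 4.76 in NASH-fib (SE 0.39, adjusted p = 4.26e-05, limma with Benjamini-Hochberg adjustment) and 4.74 in CCl4-fib (SE 0.39, adjusted p = 3.30e-05). The summed RPKM of 6 mesothelial genes was likewise 49.0 to 93.2 for HSCs, 1540 to 2180 for CCl4-fib and 2218 to 3033 for NASH-fib. Sums of the activated fibroblast and cholangiocyte genes were also higher in both kinds of fibroblast. In CCl4-fib the cholangiocyte sum was mostly Krt19 (126 to 440 RPKM), and Epcam, Cftr and Cdh1 overlapped with HSCs there. The part of any such cells in the Figf values was not tested. Ccbe1, which helps process VEGF-C, fell by 2.97 on the log2 scale in NASH-fib and by 2.75 in CCl4-fib (adjusted p = 0.000283 and 0.000279), from 1013 to 1922 in HSCs to 169 to 237 in the fibroblasts.

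Added over these 5 ligands, transcript levels per length were 42.0, 74.6 and 25.5 RPKM for HSCs, 134, 93.0 and 97.0 for CCl4-fib and 101, 227 and 133 for NASH-fib. Every fibroblast library was above every HSC library. Vegfc held 58.8% to 75.7% of the sum in HSCs, and Figf or Pgf held the largest share in every fibroblast library. Figf held 42.8%, 56.1% and 46.8% among CCl4-fib libraries and 54.7%, 18.9% and 45.1% among NASH-fib libraries. Pgf held 43.1%, 4.12% and 5.39% among CCl4-fib libraries and 4.73%, 70.9% and 41.9% among NASH-fib libraries.

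**Figure D3:**
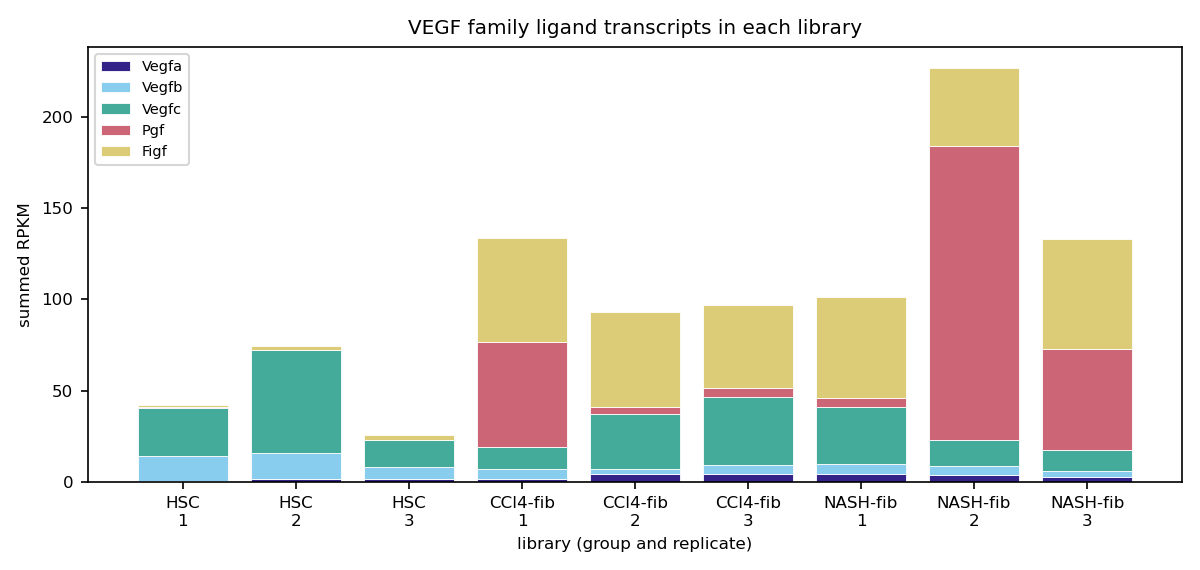
Stacked RPKM of the 5 VEGF family ligands in each library. HSC bars consist mostly of Vegfc, whereas Figf and Pgf make up most of the height in most fibroblast libraries, with the Pgf part large in CCl4-fib 1, NASH-fib 2 and NASH-fib 3.

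Flt1 encodes VEGF receptor 1, which binds VEGF-A, VEGF-B and Pgf and, in soluble form, traps them. Its values (NM_010228, chr5:147562196-147725988, minus strand) were 569, 703 and 385 for HSCs, 47.6, 77.4 and 53.4 for CCl4-fib and 85.6, 41.9 and 96.3 for NASH-fib. The lowest HSC library was well above the highest fibroblast library, and the fibroblast groups overlapped. Flt1 fell by 2.91 on the log2 scale in NASH-fib (SE 0.44, adjusted p = 0.00139, limma with Benjamini-Hochberg adjustment) and by 3.18 in CCl4-fib (SE 0.44, adjusted p = 0.000524). Between the fibroblasts the log2 fold change was 0.27 (95% CI -0.71 to 1.24, adjusted p = 0.712). Of the members, Flt1, Tek and Tie1 kept their call against HSCs in CCl4-fib under every alternative tried.

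The other VEGF receptors and co-receptors of the pathway list had the same direction against HSCs. Of these 4 genes, 2 were called lower in NASH-fib (4.3% of all genes tested) and 4 in CCl4-fib (11.7%). Kdr, the main signaling receptor for VEGF-A, had values of 870, 623 and 1026 for HSCs, 88.9, 91.0 and 89.7 for CCl4-fib and 229.7, 224 and 317 for NASH-fib. The 3 groups did not overlap, with NASH-fib between the others, and the log2 fold changes were -1.69 in NASH-fib, -3.18 in CCl4-fib and 1.49 between the fibroblasts (adjusted p = 0.00644, 9.93e-05 and 0.0233). Flt4 was lower in both kinds of fibroblast (-2.26 and -2.19, adjusted p = 0.00889 and 0.00612) with values of 454 to 778 for HSCs, 88.1 to 159 for CCl4-fib and 62.3 to 194 for NASH-fib. The co-receptor Nrp1 had 3118 to 5603 for HSCs, 408 to 709 for CCl4-fib and 1594 to 2694 for NASH-fib. It was called lower in CCl4-fib (-3.01, adjusted p = 0.000248) and higher in NASH-fib than in CCl4-fib (1.88, adjusted p = 0.0152), and its log2 fold change of -1.12 against HSCs in NASH-fib was not called (adjusted p = 0.0777). Nrp2 differed likewise, with -2.06 in CCl4-fib, 1.76 between the fibroblasts and -0.30 in NASH-fib against HSCs (adjusted p = 0.00388, 0.0251 and 0.785).

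Angpt1 and Angpt2, the agonist and the context-dependent antagonist of Tie2, differed between the groups in separate ways. Angpt1 (NM_001286062, chr15:42424667-42676977, minus strand) had values of 371, 577 and 133 for HSCs, 106, 43.4 and 79.2 for CCl4-fib and 644, 281 and 199.5 for NASH-fib. The CCl4-fib libraries were all lower than those of both other groups, which overlapped. Angpt1 fell by 2.08 on the log2 scale in CCl4-fib against HSCs (SE 0.62, adjusted p = 0.0308, limma with Benjamini-Hochberg adjustment) and was higher by 2.19 in NASH-fib than in CCl4-fib (SE 0.62, adjusted p = 0.0484). In NASH-fib against HSCs the log2 fold change was 0.12 (95% CI -1.26 to 1.49). The first call was lost without HSC replicate 1 or 2 or CCl4-fib replicate 2 or 3 (adjusted p up to 0.120), and the second without any 1 library except HSC replicate 2 or 3 (adjusted p up to 0.185), and it was also lost with a pseudocount of 0.5, without the filter on low values, among genes of an average value over 100 only and with the leading label number as a term (adjusted p = 0.0515 to 0.0536). Angpt1 shares 737 exonic bases with Gm17473 on the opposite strand, and reads of the 2 genes cannot be told apart since the counting took reads of either strand.

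Angpt2 (NM_007426, chr8:18690263-18741562, minus strand) had values of 25.7, 37.9 and 19.1 for HSCs, 152, 91.0 and 63.0 for CCl4-fib and 189, 879 and 469 for NASH-fib. The 3 groups did not overlap, with HSCs lowest and NASH-fib highest. Angpt2 was higher in NASH-fib than in HSCs by 3.96 on the log2 scale (SE 0.59, adjusted p = 0.00125, limma with Benjamini-Hochberg adjustment), in CCl4-fib than in HSCs by 1.81 (SE 0.59, adjusted p = 0.0418), and in NASH-fib than in CCl4-fib by 2.15 (SE 0.59, adjusted p = 0.0428). The difference between CCl4-fib and HSCs lost its call without HSC replicate 1 or 3, without any 1 CCl4-fib library and without NASH-fib replicate 3 (adjusted p up to 0.157), and with the leading label number as a term (adjusted p = 0.182). The difference between the fibroblasts lost it without HSC replicate 1, any 1 CCl4-fib library, or NASH-fib replicate 2 or 3, with the leading label number as a term and in a fit on both groups alone (adjusted p up to 0.144). Pgf and Angpt2 had a Pearson r of 0.912 over the 9 libraries, given as a description across libraries of 3 groups.

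Within each library, the ratio of Angpt2 to Angpt1 in RPKM was 0.0841, 0.0796 and 0.175 for HSCs, 1.74, 2.54 and 0.964 for CCl4-fib and 0.355, 3.79 and 2.85 for NASH-fib. A ratio within a library does not depend on how the libraries were scaled. Angpt1 exceeded Angpt2 in all 3 HSC libraries, and Angpt2 exceeded Angpt1 in 2 of 3 libraries of each kind of fibroblast. The mean log2 ratio was -3.25 ± 0.63 for HSCs, 0.70 ± 0.71 for CCl4-fib and 0.65 ± 1.86 for NASH-fib (SD, n = 3 libraries each). The differences from HSCs were 3.94 in CCl4-fib and 3.89 in NASH-fib, each with p = 0.1 in an exact two-sided permutation test, which is the smallest p that 3 against 3 libraries allow. Both angiopoietins were higher in NASH-fib than in CCl4-fib, and the difference of the mean log2 ratio was -0.05 (NASH-fib minus CCl4-fib, exact two-sided permutation p = 1) with overlapping libraries.

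**Figure D4:**
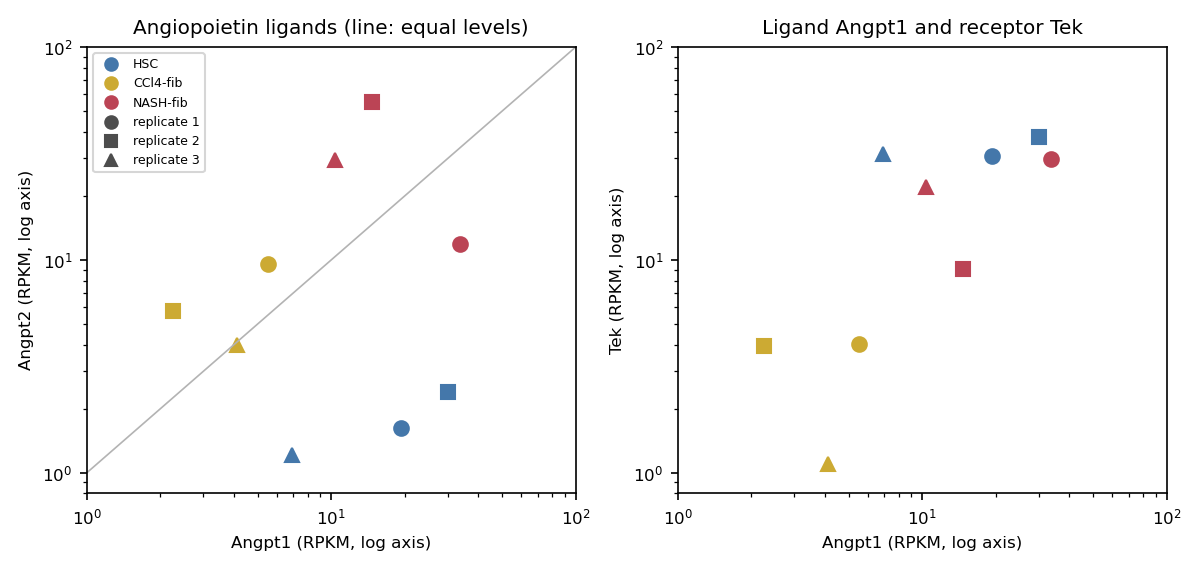
Left, Angpt2 against Angpt1 in RPKM on log axes, with a grey line of equal levels. Right, Tek against Angpt1 on log axes. Each symbol is 1 library. The HSC libraries lie below the line of equal levels, 2 CCl4-fib and 2 NASH-fib libraries lie above it, and the CCl4-fib libraries are low on both axes of the right panel.

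Tek encodes Tie2, the angiopoietin receptor of endothelial cells. Its values (NM_013690, chr4:94739289-94874976, plus strand) were 643, 794 and 656 for HSCs, 84.1, 82.5 and 22.9 for CCl4-fib and 624, 189.7 and 462 for NASH-fib. The HSC libraries were close together, NASH-fib replicate 1 came near them, and CCl4-fib lay below both other groups without overlap. Tek fell by 3.65 on the log2 scale in CCl4-fib against HSCs (SE 0.57, adjusted p = 0.00110, limma with Benjamini-Hochberg adjustment) and was higher by 2.78 in NASH-fib than in CCl4-fib (SE 0.57, adjusted p = 0.0180). The latter call was lost without CCl4-fib replicate 2 (adjusted p = 0.0501) or NASH-fib replicate 3 (adjusted p = 0.0666). In NASH-fib against HSCs the log2 fold change was -0.87 (95% CI -2.14 to 0.40, adjusted p = 0.451).

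Tie1, the partner receptor of Tie2, had the lowest mean RPKM of the receptors and co-receptors in all 3 groups. Its values (NM_011587, chr4:118471191-118489849, minus strand) were 52.6, 115 and 75.3 for HSCs, 2.38, 2.55 and 0 for CCl4-fib and 9.52, 6.23 and 18.7 for NASH-fib. The CCl4-fib values stand for 6 reads in all, the NASH-fib values for 33 and the HSC values for 187, and the 3 groups did not overlap. On summed reads Tie1 was 45.6 times higher in HSCs than in CCl4-fib (95% exact interval 20.6 to 126) and 6.66 times higher in NASH-fib than in CCl4-fib (2.76 to 19.5), with counting error only, and the latter ratio was 4.37 without NASH-fib replicate 3. Tie1 fell by 5.09 on the log2 scale in CCl4-fib (SE 0.70, adjusted p = 0.000516, limma with Benjamini-Hochberg adjustment) and by 2.77 in NASH-fib (SE 0.70, adjusted p = 0.0249). The call in NASH-fib was lost without any 1 HSC library or NASH-fib replicate 2 (adjusted p up to 0.0950) as well as with a pseudocount of 0.5 (adjusted p = 0.0526) and with the leading label number as a term (adjusted p = 0.319). Between the fibroblasts the log2 fold change was 2.32 (adjusted p = 0.0597), and it passed with DESeq2 (2.94, adjusted p = 0.0107).

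Most endothelial markers had lower levels in both kinds of fibroblast than in HSCs. The summed RPKM of 19 endothelial genes was 1310 to 2750 for HSCs, 109 to 203 for CCl4-fib and 382 to 708 for NASH-fib. Of these genes, 18 were lower in every CCl4-fib library than in any HSC library, all but Esam, and 14 were so in NASH-fib, all but Pecam1, Lyve1, Emcn, Esam and Vwf. Among all genes tested, 48.6% in CCl4-fib and 24.4% in NASH-fib did not overlap with HSCs, in either direction. Cdh5, the cadherin of endothelial junctions, had 30.9 to 53.4 RPKM for HSCs, 0.144 to 0.223 for CCl4-fib and 2.26 to 10.8 for NASH-fib, and Cldn5 and Robo4 were at 0 in CCl4-fib replicates 2 and 3. Emcn, in contrast, had 77.7 RPKM in NASH-fib replicate 1, above the 58.7 to 75.4 of the HSC libraries. Without Esam, which mural cells also express and which was left out after its values were seen, the sum was 1267 to 2569, 37.5 to 41.4 and 156 to 531. Between the fibroblasts both sums were higher in NASH-fib, where Tek and Kdr were called higher and Flt1 and Flt4 were not. Macrophage and other leukocyte genes (12 in number) had a summed RPKM of 754 to 2725, 80.1 to 175 and 602 to 1211 in the same order of groups.

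Shares of the receptors in the endothelial sum depended on whether Esam was counted. With all 19 genes, Flt1 amounted to 0.501% to 1.92% of the sum for HSCs, 0.839% to 2.53% for CCl4-fib and 0.317% to 0.803% for NASH-fib. HSCs overlapped with both kinds of fibroblast, and CCl4-fib lay narrowly above NASH-fib. Without Esam it was 0.536% to 1.99%, 4.47% to 6.68% and 0.649% to 0.959%, and CCl4-fib was apart. Tek amounted to 1.14% to 2.90%, 0.988% to 3.60% and 1.92% to 7.82% with all 19 genes, with overlap among all groups, and to 1.22% to 3.00%, 2.92% to 10.5% and 4.16% to 8.50% without Esam. Tie1 was at 0.152% to 0.509%, 0% to 0.135% and 0.0766% to 0.153% with all genes and at 0.156% to 0.527%, 0% to 0.362% and 0.157% to 0.232% without Esam. These shares are a description of RNA in bulk samples, and the part of endothelial cells in the receptor values was not tested.

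**Figure D5:**
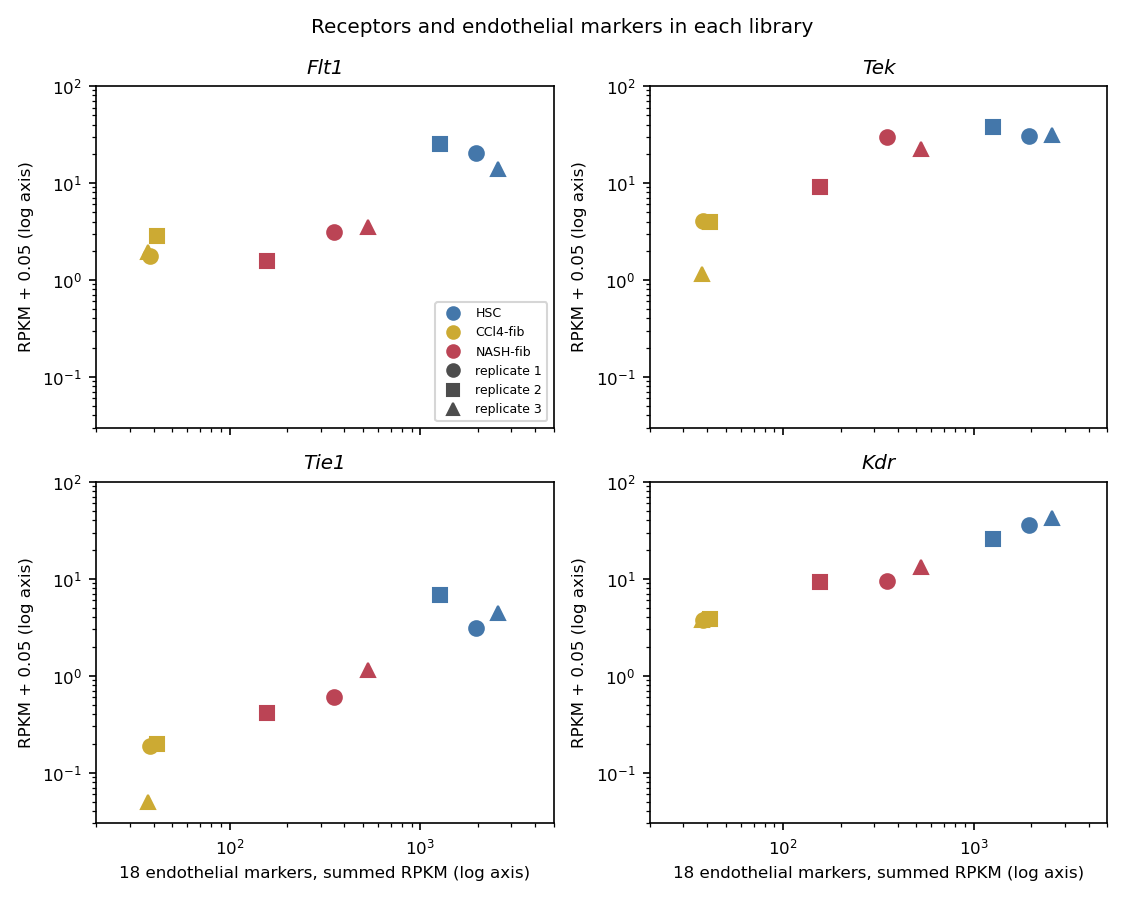
RPKM of Flt1, Tek, Tie1 and Kdr (with 0.05 added for the log axis) against the summed RPKM of 18 endothelial marker genes (without Esam) in each library, both on log axes. CCl4-fib libraries lie at marker sums of 37.5 to 41.4, NASH-fib libraries at 156 to 531 and HSC libraries at 1267 to 2569, and the Tie1 symbol at the foot of its panel is a value of 0.

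Within each group, the order of the members by mean RPKM differed. In HSCs, Tek (33.4), Vegfc (32.7), Flt1 (19.8), Angpt1 (18.7), Vegfb (11.5) and Tie1 (4.70) came before Angpt2 (1.74), Vegfa (1.14) and Pgf (0.164), and the libraries of neighbours overlapped except between Tie1 and Angpt2 and between Vegfa and Pgf. In CCl4-fib, Vegfc (26.5) and Pgf (22.3) led, and Angpt2 (6.43), Vegfb (4.43), Angpt1 (3.97), Vegfa (3.18), Tek (3.02) and Flt1 (2.13) followed with overlapping neighbours. Tie1 (0.0954) was apart from all of them. In NASH-fib, Pgf (73.8), Angpt2 (32.3), Tek (20.3), Angpt1 (19.5) and Vegfc (19.0) overlapped in turn, and Vegfb (4.55), Vegfa (3.55) and Flt1 (2.67) followed. Vegfc did not overlap with its neighbour Vegfb, but Pgf, lowest in replicate 1, did. Tie1 (0.666) was again last.

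Of the 34 other genes of the pathway, 33 were tested (Sh2d2a did not pass the filter). In NASH-fib against HSCs 4 were called higher and 5 lower (8.23% and 4.3% of all genes tested), in CCl4-fib against HSCs 5 higher and 10 lower (16.2% and 11.7%), and in NASH-fib against CCl4-fib 6 higher and 1 lower (4.97% and 5.66%), with median log2 fold changes of -0.48, -0.33 and -0.05. Among the partners of the Tie receptors, Ptprb, the endothelial phosphatase that dampens Tie2, had values of 4169 to 5713 for HSCs, 36.3 to 100.4 for CCl4-fib and 205 to 1547 for NASH-fib. It was called in all 3 comparisons (-2.86, -6.49 and 3.63, adjusted p = 0.0171, 9.45e-05 and 0.0134). Svep1, a matrix protein reported to bind Tie1, was higher in both kinds of fibroblast, from 1.17 to 14.4 for HSCs to 303 to 639 for CCl4-fib and 348 to 742 for NASH-fib (log2 fold changes 5.89 and 6.25, adjusted p = 0.000186 and 0.000207).

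Downstream of the VEGF receptors, 1 of 12 genes tested was called higher and 1 lower in NASH-fib against HSCs, 3 were higher and 2 lower in CCl4-fib against HSCs, and 1 was higher and 1 lower in NASH-fib against CCl4-fib, where the shares of all genes tested were 8.23% and 4.3%, 16.2% and 11.7%, and 4.97% and 5.66%. Hspb1, a small heat shock protein of the actin response to VEGF, was higher in NASH-fib (2.55, adjusted p = 0.00357) and CCl4-fib (3.83, adjusted p = 0.000198). Prkcb, a protein kinase C, was lower in both (-2.76 and -2.90, adjusted p = 0.0463 and 0.0215). Akt1, the kinase of the survival branch, had values of 32.0 to 126 for HSCs, 219 to 310 for CCl4-fib and 20.4 to 53.4 for NASH-fib. It was called higher in CCl4-fib than in HSCs (1.83, adjusted p = 0.0331) and lower in NASH-fib than in CCl4-fib (-2.90, adjusted p = 0.0148). Nos3, the endothelial nitric oxide synthase, had 37.4 to 81.6 in HSCs, 0 in all CCl4-fib libraries and 4.45 to 27.2 in NASH-fib, and was called lower in CCl4-fib than in HSCs and NASH-fib (adjusted p = 0.000342 and 0.0226). Sphk1, which makes sphingosine 1-phosphate, had 0 to 4.37 in HSCs and 12.7 to 51.0 in CCl4-fib and was called higher there (adjusted p = 0.0121).

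Of the 5 genes downstream of Tie2, Grb14 was higher in NASH-fib than in HSCs (2.33, adjusted p = 0.0209), and Dok2 (-2.82) and Pik3r1 (-1.48) were lower in CCl4-fib than in HSCs (adjusted p = 0.0498 and 0.0152). Foxo1, the transcription factor that Tie2 signaling restrains, was higher in NASH-fib than in CCl4-fib (1.31, adjusted p = 0.0339), with 544 to 623 against 208 to 256, and had 307 to 579.6 in HSCs. Its calls and those of the other pathway genes between the fibroblasts fell in number from 7 to 1 without CCl4-fib replicate 2 or without NASH-fib replicate 3. Calls over all genes tested fell likewise, from 1451 to 247 and 238 in these fits in turn.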

How the data were processed

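RNA was sequenced in 9 libraries, 3 in each group as labelled. The authors amplified total RNA with the SMARTer kit, sequenced single-end reads, aligned them to mm10 with STAR and counted reads of either strand on exons of RefSeq genes with HOMER, keeping no more than 3 reads at a position and listing each gene once. Versions are not given in the sources used here. The deposited values are a signal, the counts multiplied by 1 factor per library from a normalization over 10 libraries, of which 9 were used here. Whole multiples of what 1 read is worth made up 100% of the values (tolerance 0.006), and 3 reads equal a value of 2.38 to 4.37. The precision of low genes is limited by these reads.

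Since the values are not counts, limma 3.58.1 in R 4.3.3 (trended prior, pseudocount 1, all 9 libraries in 1 fit) was used in place of edgeR after filterByExpr of edgeR with a minimum count of 10. Adjustment was by Benjamini-Hochberg over 13651 genes. RPKM were computed here from the recovered reads and the listed exonic lengths. Alternatives were edgeR 4.0.16, DESeq2 1.42.0, other scalings, pseudocounts, filters and terms, and each library left out in turn. The fit was tested on simulated data for NASH-fib against HSCs with 13115 genes, where it called 91 of 100 genes changed by 2 on the log2 scale, 100 of 100 changed by 4, and 7 unchanged genes. How often the fit calls changes of these sizes, or unchanged genes, at the spread of the deposited libraries was not tested. In the deposited values the SE of the members in NASH-fib against HSCs ranged from 0.44 (Flt1) to 1.33 (Pgf). The members and gene lists were chosen with earlier results of these data known. The genes named are the 9 members, pathway genes called in any comparison, VEGF receptors and co-receptors, the 3 genes most alike each member by Pearson r, and marker genes that moved with a member. Of the genes that this rule selects, one is not reported here. Figf is the listed name of Vegfd. Genes that the text singles out beyond this after their values were seen are Gm17473 and single endothelial markers such as Esam and Emcn. Others are single mural markers such as Kcnj8 and Abcc9 and single cholangiocyte and hepatocyte markers such as Krt19 and Trf. The genes of oxygen sensing and Sh2d2a are named as list members that were not called or not tested.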

Additional observations from a re-analysis of the deposited data

How the results depend on the processing

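Most values kept their direction and their side of the threshold. Over the settings that keep all libraries, 268 results were unchanged in this sense, 16 lost and 2 gained a call and 2 changed direction, and over the fits that leave out 1 library the numbers were 205, 30, 1 and 7. With the leading number of the description labels as a term of the fit, the members called fell from 4 to 0 in NASH-fib against HSCs and from 3 to 1 in NASH-fib against CCl4-fib. The pathway genes called fell from 9 to 3 and from 7 to 3. Calls over all genes tested fell as well, from 1711 to 668 and from 1451 to 593, and the cause was not tested. With 1 library left out, 3 to 4 members were called in NASH-fib against HSCs, 4 to 6 in CCl4-fib against HSCs and 0 to 3 in NASH-fib against CCl4-fib, and 6 to 12, 11 to 18 and 1 to 8 pathway genes. Of all genes tested, 1227 to 1950, 2419 to 4708 and 238 to 1759 were called in these fits. The 0 among the members stands for the limma fits that leave out CCl4-fib replicate 2 or NASH-fib replicate 3. In both, 4 members had an unadjusted p under 0.05, and 247 and 238 of all genes were called. Values that changed direction were not called in any setting. Between NASH-fib and HSCs these were Angpt1 (-0.48 without HSC replicate 3 and -0.36 without NASH-fib replicate 1, up to 0.57 with other libraries left out) and Tek (0.031 with the label term). Between CCl4-fib and HSCs it was Vegfc (0.25 without HSC replicate 2 and 0.24 without CCl4-fib replicate 1, down to -0.70). Between the fibroblasts these were Vegfa (-0.26 without CCl4-fib replicate 1, up to 0.59) and Vegfb (-0.19 with the label term, and from -0.23 without CCl4-fib replicate 2 up to 0.27, with -0.06 where NASH-fib replicate 1 was left out). Same-numbered libraries did not deviate together more than others (r from -0.47 to 0.51 over 9 pairs, against -0.59 to 0.65 over 18 pairs with different numbers). With so few libraries these values cannot settle whether the numbers pair the libraries. With the replicate block, 3, 5 and 1 members and 7, 13 and 5 pathway genes were called in the 3 comparisons in turn. Of all genes tested, 1487, 3312 and 929 were called with it. The block took away the calls of Tie1 in NASH-fib against HSCs, Angpt2 in CCl4-fib against HSCs, and Angpt1 and Angpt2 between the fibroblasts (adjusted p = 0.0597, 0.0566, 0.0549 and 0.0648). Other scalings moved the median log2 fold change of all genes by up to 0.25 in NASH-fib against CCl4-fib (edgeR) and by -0.16 in CCl4-fib against HSCs (edgeR). The share of all calls between the fibroblasts that were higher in NASH-fib rose from 46.7% to 58.8% with edgeR, 56.7% with DESeq2 and 55.7% with TMM scaling. On the recovered reads edgeR called 1576, 3592 and 1365 of all genes in the 3 comparisons in turn, and limma 1711, 3801 and 1451. With only genes of an average value over 100, Vegfa, Vegfb and Tie1 were not tested. The depth limits Pgf in HSCs and Tie1 in CCl4-fib, which rest on 3 and 6 reads in all.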

Other observations

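The genes whose log2 values were most like those of each member over the 9 libraries are given with Pearson's r as a description. The libraries share groups, so most of each r lies between the groups, and nothing follows from it about shared control. Flt1 was most like Sh3bp5 (0.987), Papss2 (0.986) and Arap3 (0.986). Tek was most like Clec1b (0.988), Abcg3 (0.984) and the endothelial gene Mmrn2 (0.980). Tie1 was most like Bin2 (0.983), Tfec (0.981) and Aif1 (0.977), a gene of macrophages. Pgf was most like Myh11 (0.982), then Slc2a4 (0.969) and Slc6a17 (0.969), and Angpt2 like Slc38a11 (0.980), Scg5 (0.975) and Bst1 (0.971). Among the genes most like Angpt1 were Epc2 (0.988) and Adra1b (0.982). For Vegfc these were Ier5 (0.978), Mex3d (0.971) and Btg3 (0.958), for Vegfb Samd5 (0.963), Sept10 (0.956) and Jak2 (0.949), and for Vegfa Cep112 (0.966), 1500026H17Rik (0.941) and 4921511C10Rik (0.928).

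Of the marker lists of other cells, 15 hepatocyte genes had a summed RPKM of 3079 to 6999 in HSCs, 1267 to 1594 in CCl4-fib and 1366 to 4372 in NASH-fib. In CCl4-fib most of this sum was Trf (930 to 1191 RPKM, against 338 to 797 in HSCs). Trf was the only gene of the list higher in every CCl4-fib library than in any HSC library. Alb, for example, had 67.5 to 90.7 in CCl4-fib and 991 to 1549 in HSCs. The 6 mesothelial genes had 49.0 to 93.2, 1540 to 2180 and 2218 to 3033, the 6 cholangiocyte genes 3.84 to 6.57, 191 to 496 and 89.9 to 154, and 5 proliferation genes 11.1 to 13.7, 26.4 to 42.4 and 9.63 to 13.8. Among the cholangiocyte genes, Krt19 had 126 to 440 RPKM in CCl4-fib and 8.63 to 76.4 in NASH-fib. Epcam, Cftr and Cdh1, in contrast, lay at 0 to 1.16 in CCl4-fib and 2.25 to 8.91 in NASH-fib.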
